A study of Mus musculus with 4 samples.

Results

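The genes described here are the 20 genes of the cytosolic aminoacyl-tRNA synthetases and 20 genes of the amino acid response run by the transcription factor ATF4, 40 of the 52125 rows of the expression table. They were taken by symbol from a fixed list, and all 40 were found and passed the filter on low counts. The tissue was the stomach corpus of wild-type C57BL/6 mice aged 6 to 8 weeks. The HDT group was 2 mice given a single intraperitoneal dose of 5 mg per 20 g of body weight to damage the stomach, and the control group, called vehicle in the sample titles, was 2 mice of the same strain, genotype and age. Both groups were sampled at 48 hr, and each library held RNA of 1 mouse. The labels give HDT as letters only; in studies of gastric injury these letters stand for high-dose tamoxifen. The extraction protocol speaks of untreated mice, so the labels do not settle whether the controls were injected. Separate mice are the replicates. With 2 per group the spread of a single gene is poorly measured, and each p-value leans on spread shared across genes.

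A tRNA synthetase joins one amino acid to its tRNAs, and a cell that makes much protein needs all of them in step. ATF4 is a transcription factor whose translation increases when kinases such as PERK or GCN2 phosphorylate the initiation factor eIF2, and it turns on genes that make, import and charge amino acids. In the corpus, the enzyme-secreting chief cells carry a heavy load of protein synthesis in the endoplasmic reticulum, where PERK acts as a stress sensor.

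The 2 sets of genes moved in different ways. Of the 20 synthetases, 11 were called, 9 higher in HDT and 2 lower, with a median log2 fold change of 0.16. Of the 20 ATF4 and amino acid genes, 16 were called, 5 higher and 11 lower, with a median of −0.27. Over all 18285 genes tested, 18.4% were called higher and 19.3% lower, with a median of 0.00 and quartiles at −0.30 and 0.28 on the log2 scale. A call means an adjusted p under 0.05 in limma's moderated test, and levels are reads scaled to the library total (CPM) after TMM scaling, which sets the libraries level on the bulk of their genes. Both HDT libraries lay above both vehicle libraries for 12 synthetases and below for 5, and for 7 and 12 of the ATF4 and amino acid genes. Among all tested genes those shares were 35.3% above and 35.5% below.

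The scaling of the libraries decides part of this picture. At the authors' own scaling, which gives the columns nearly equal totals, the median log2 fold change of all genes was 0.53 rather than 0.00. With it 11483 genes were higher (62.8% of those tested) and 998 lower (5.5%). Counts given below at this deposited scaling are to be set beside these shares. There all 20 synthetases were called higher and none lower, while 10 of the ATF4 and amino acid genes were higher and 5 lower. A small set held its call at both scalings and in 14 other ways of processing (other scalings, filters, pseudocounts and tools, a replicate block and the loss of each library): Vars, Farsb, Qars, Wars, Farsa, Psat1 and Shmt2 were higher, and Eif2ak3, Atf5, Ppp1r15a, Cth and Chac1 were lower. The deposited scaling raised the fold change of every member, so it could hardly undo a higher call. Holding at both scalings therefore says little for the higher genes and is a hurdle only for the lower ones. All fold changes below use TMM unless the deposited scaling is named, and each is thus a change relative to the typical gene.

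**Figure D1:**
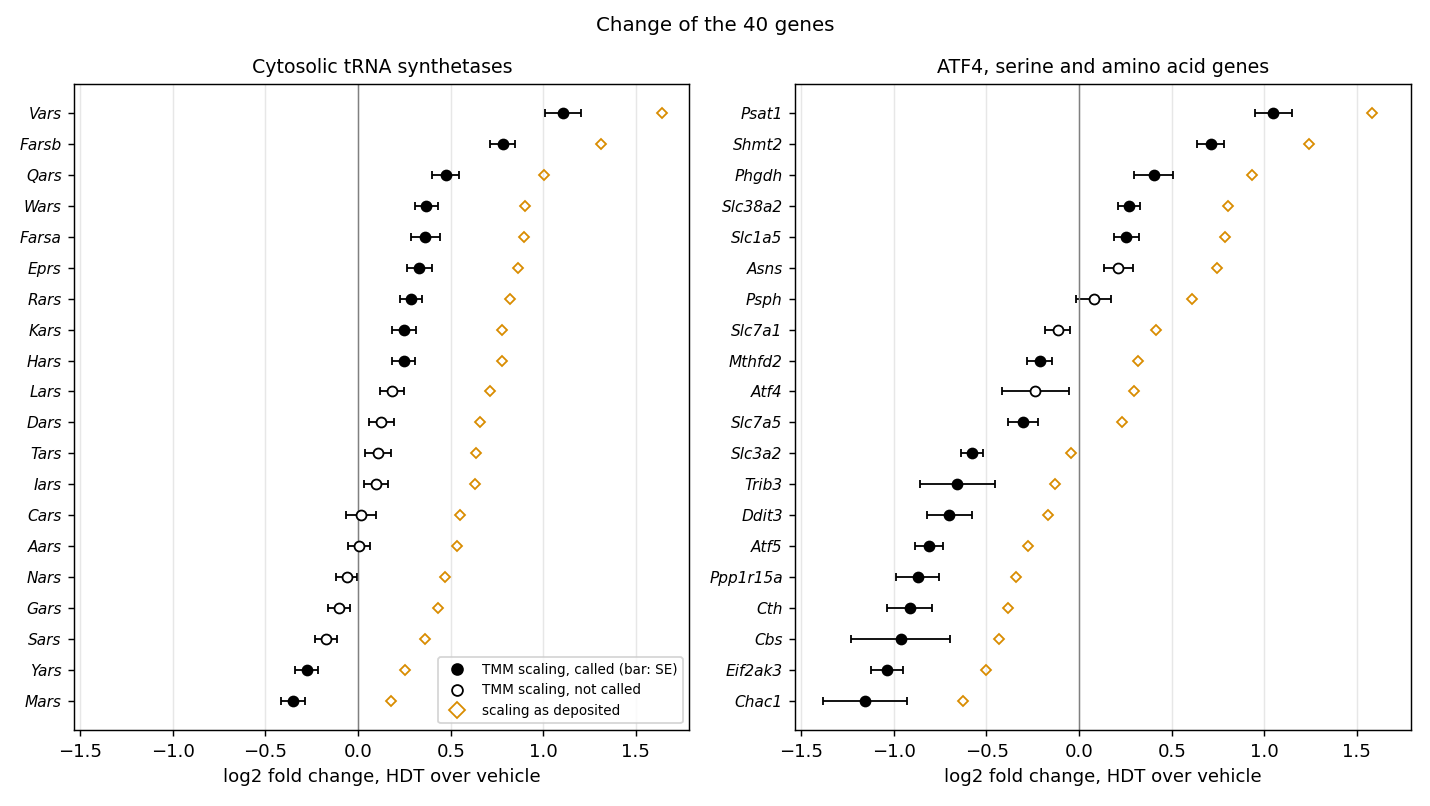
Log2 fold change of HDT over vehicle for the 20 synthetases (left panel) and the 20 ATF4 and amino acid genes (right panel), with bars for the standard error. Filled circles passed the test with TMM, open circles did not, and diamonds give the same genes at the deposited scaling, which lies to the right for all 40. Vars (1.11) and Psat1 (1.05) were at the top, and Mars (−0.35) and Chac1 (−1.16) at the bottom.

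Depth was 41536686 to 42674985 reads per library. Corpus markers were present, and markers of several cell types differed between the groups. The summed level of 9 chief cell markers was 45480 and 32130 CPM in HDT, against 155700 and 189000 CPM in vehicle, with 5 lower and 1 higher. Most of that sum was Pgc, named after its values were seen. It was at 39660 and 29180 CPM in HDT and 139900 and 171700 CPM in vehicle. The gene Gif is counted both there and among the parietal markers. For 12 parietal cell markers the sums were 3265 and 2696 CPM in HDT and 15030 and 16880 CPM in vehicle, with 10 lower. For 7 surface mucous markers they were 65810 and 80670 CPM in HDT and 123400 and 120400 CPM in vehicle, with 6 lower. Fibroblast markers summed to 2007 and 2268 CPM in HDT and to 1117 and 1109 CPM in vehicle, with 7 of 9 higher. The 14 mitosis genes were all higher, at 862.5 and 728.8 CPM in HDT and 213 and 236 CPM in vehicle, and of 12 macrophage genes 9 were higher and 1 lower, summing to 437 and 364 CPM in HDT and to 199 and 212 CPM in vehicle. In bulk tissue fewer cells of a type and less RNA per cell cannot be told apart, and the part of these shifts in the results below was not tested. Vehicle replicate 2 stood apart in genes of the pancreatic acinar cell: the lipase Pnlip was at 0.08 and 0.12 CPM in HDT and at 0.06 and 28.4 CPM in vehicle, and Cpa1 had no read in the other 3 libraries and 16.1 CPM in that one. Pnlip and Cpa1 are named after their values were seen. Of the 17 acinar markers, 16 without the abundant Clps summed to 22.3 and 22.3 CPM in HDT and to 102 and 317 CPM in vehicle. Without that library 8 synthetases were higher and 2 lower, and 3 of the ATF4 and amino acid genes were higher and 7 lower.

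Some members carry the sequence through which ATF4 is known to act. The core of the C/EBP-ATF response element, TGATGNAA, was searched on both strands in the 250 bases before each RefSeq start, and 30 of the 40 members had a promoter to search; Cars, Hars, Lars, Nars, Rars, Vars, Wars, Cth, Slc7a5 and Slc1a5 were not matched. It was found for 3 of 13 synthetases (23.1%) and 2 of 17 ATF4 and amino acid genes (11.8%), against 3.91% of 27025 genes with a promoter in the same table. The 5 matches are printed below from RefSeq on GRCm38.p6, each on its gene's strand with the match in capitals and ending before the start. Whether the element goes with the change in level was not tested. Chac1, an enzyme that breaks down glutathione, has it at chr2:119351033-119351072 on the plus strand, with 185 bases between the match and the start. Asparagine synthetase (Asns) has it at chr6:7693210-7693248 on the minus strand, 15 bases away. Tars lies at chr15:11399659-11399689 (minus, 7 bases), Gars at chr6:55037955-55037994 (plus, 22 bases) and Aars at chr8:111033714-111033753 (plus, 104 bases).
Chac1: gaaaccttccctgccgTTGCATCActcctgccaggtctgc
Asns: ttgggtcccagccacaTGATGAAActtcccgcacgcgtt
Tars: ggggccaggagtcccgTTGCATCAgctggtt
Gars: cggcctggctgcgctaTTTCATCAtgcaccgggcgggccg
Aars: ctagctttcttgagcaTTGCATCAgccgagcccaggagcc
The capitals of Chac1, Tars and Aars are the same 8 letters. Of these 5 genes, Chac1 was called lower, with a log2 fold change of −1.16, and the other 4 had no call, with 0.21 for Asns, 0.11 for Tars, −0.10 for Gars and 0.00 for Aars. An E-box, CACGTG, was found for 3 of 13 synthetases (23.1%), namely Iars, Aars and Farsb. In the other set it was found for 1 of 17 genes (5.88%), Cbs. Of the 27025 genes 6.86% had one. A match is a string of letters and not a measured binding site.

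Among the synthetases, valyl-tRNA synthetase stood furthest out. Vars (chromosome 17, 35000987 to 35016322, GRCm38) was at 123 and 102 CPM in HDT mice, against 49.99 and 54.0 CPM in vehicle mice. Both HDT mice lay far above both vehicle mice, with a log2 fold change of 1.11, or 2.15-fold (SE 0.10, limma adjusted p = 0.000131). Its mitochondrial counterpart Vars2, which charges valine in the organelle, ran the other way at 53.0 and 51.7 CPM in HDT and 97.1 and 113 CPM in vehicle (log2 fold change −1.001, SE 0.08, limma adjusted p = 7.25e-05). The ratio of Vars to Vars2 reads does not depend on the library scaling, and it was 2.32 and 1.97 in HDT mice, against 0.52 and 0.48 in vehicle mice. This and the other pairs of genes compared by reads were put together after their values were seen.

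Phenylalanyl-tRNA synthetase is built of alpha and beta subunits, and both genes were higher. Farsb, the beta subunit (chromosome 1, 78417975 to 78488897), was at 141 and 128 CPM in HDT and at 78.6 and 77.6 CPM in vehicle, a log2 fold change of 0.78 (SE 0.07, limma adjusted p = 8.8e-05). Farsa, the alpha subunit (chromosome 8, 84856989 to 84869257), was at 22.1 and 22.5 CPM in HDT and at 17.9 and 16.7 CPM in vehicle, a log2 fold change of 0.36 (SE 0.08, limma adjusted p = 0.00793). The subunits are thus not matched in transcript level: Farsb had 6.36 and 5.71 reads per Farsa read in HDT mice and 4.38 and 4.64 in vehicle mice. Per kilobase of annotated exon the level of Farsb was 51.3 CPM in HDT and 29.8 CPM in vehicle. That of Farsa was 4.91 CPM in HDT and 3.82 CPM in vehicle. The length takes in all annotated exons, 2620 bases for Farsb and 4538 for Farsa, so the gap depends in part on annotation.

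Tryptophanyl-tRNA synthetase, known also as a gene induced by interferon, was higher too. Wars (chromosome 12, 108860030 to 108894174) was at 139 and 149.7 CPM in HDT and at 113 and 110.2 CPM in vehicle, with a log2 fold change of 0.37 (SE 0.06, limma adjusted p = 0.00289). Hars, for histidine, was at 47.5 and 47.4 CPM in HDT and 39.9 and 40.1 CPM in vehicle; its log2 fold change of 0.25 (limma adjusted p = 0.0149) was no longer called without vehicle replicate 1 (0.0801) or vehicle replicate 2 (0.0714). Tyrosyl-tRNA synthetase went down: Yars was at 43.2 and 44.9 CPM in HDT and at 53.7 and 53.1 CPM in vehicle, a log2 fold change of −0.28 (limma adjusted p = 0.00929). That call was lost without vehicle replicate 1 (0.0557), and the change was 0.25 at the deposited scaling, where Yars was called higher.

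The other 6 free synthetases were not called. Alanyl-tRNA synthetase was level, with Aars at 100.2 and 102 CPM in HDT and at 102 and 99.6 CPM in vehicle, groups that overlap. Cars, for cysteine, overlapped too, at 22.9 and 24.5 CPM in HDT and 24.4 and 22.4 CPM in vehicle, and so did Tars, for threonine, at 82.3 and 91.1 CPM in HDT and 82.9 and 77.9 CPM in vehicle. Serine, glycine and asparagine are charged by Sars, Gars and Nars, and each had both HDT values under both vehicle values by small margins, with log2 fold changes of −0.17, −0.10 and −0.06 and limma adjusted p of 0.0509, 0.214 and 0.441. Sars was at 93.8 and 97.0 CPM in HDT and 108.5 and 106.6 CPM in vehicle. Gars was at 108 and 108 CPM in HDT and 114 and 118 CPM in vehicle, and Nars at 126 and 126.5 CPM in HDT and 129.8 and 134 CPM in vehicle. All 3 were called higher at the deposited scaling, whereas Sars was called lower with DESeq2 size factors (limma adjusted p = 0.0447) and with a filter at a mean of 1 CPM (0.0429).

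Inside cells of mammals, 8 of these enzymes sit together with 3 scaffold proteins in a multi-synthetase complex. Calls were made for 5 of the 8 genes, 4 upward and 1 downward, with a median log2 fold change of 0.21. The shares over all genes were 18.4% higher and 19.3% lower. All 8 genes were called higher at the deposited scaling, where 62.8% of all genes were. Glutaminyl-tRNA synthetase moved most: Qars (chromosome 9, 108507706 to 108515941) was at 99.7 and 90.0 CPM in HDT and at 65.8 and 70.6 CPM in vehicle, a log2 fold change of 0.47 (SE 0.07, limma adjusted p = 0.00163). Eprs, one protein that charges both glutamate and proline, was at 90.5 and 90.4 CPM in HDT and 68.7 and 75.3 CPM in vehicle (0.33, limma adjusted p = 0.00603). Rars, for arginine, was at 62.3 and 62.3 CPM in HDT and 49.99 and 52.1 CPM in vehicle (0.29, limma adjusted p = 0.00768). Kars, which charges lysine in the cytosol and the mitochondrion, was at 81.7 and 78.5 CPM in HDT and 65.1 and 70.0 CPM in vehicle (0.25, limma adjusted p = 0.0198). Without vehicle replicate 1 Eprs, Rars and Kars were not called, with limma adjusted p of 0.063, 0.0652 and 0.168, and Kars was not called without HDT replicate 1 either (0.0504).

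One enzyme of the complex moved against the rest. Methionyl-tRNA synthetase (Mars, chromosome 10, 127296221 to 127311786) was at 33.5 and 34.6 CPM in HDT and at 43.1 and 43.9 CPM in vehicle, a log2 fold change of −0.35 (SE 0.06, limma adjusted p = 0.00353). At the deposited scaling it was 0.18 and called higher, but the unequal change within the complex stays at any scaling, since Qars had 2.98 and 2.60 reads per Mars read in HDT mice and 1.53 and 1.61 in vehicle mice. Iars, Lars and Dars, for isoleucine, leucine and aspartate, had every HDT value above every vehicle value but no call, with log2 fold changes of 0.10, 0.18 and 0.13 (limma adjusted p = 0.268, 0.0566 and 0.181). Iars was at 70.3 and 65.3 CPM in HDT and 63.0 and 63.6 CPM in vehicle, Lars at 38.7 and 37.7 CPM in HDT and 33.2 and 34.1 CPM in vehicle, and Dars at 72.9 and 70.1 CPM in HDT and 62.8 and 68.3 CPM in vehicle. Lars was called higher with upper-quartile scaling (0.0278) and with a filter at a mean of 1 CPM (0.049). Of the scaffold genes, Aimp2 was at 21.7 and 22.9 CPM in HDT and 19.7 and 18.3 CPM in vehicle (0.23, limma adjusted p = 0.0488), a call that no fit with 1 library left out kept. Aimp1 and Eef1e1 had log2 fold changes of −0.01 and −0.15 with no call (limma adjusted p = 0.949 and 0.278), and all 3 scaffold genes were called higher at the deposited scaling.

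Leaving out 1 library leaves 1 mouse in a group, so a call lost there cannot be traced to that library. Over such fits the log2 fold change ranged over 0.264 to 0.397 for Eprs, 0.257 to 0.317 for Rars and 0.195 to 0.298 for Kars. It ranged over 0.243 to 0.266 for Hars and −0.287 to −0.245 for Yars. Levels can be set side by side per kilobase of annotated exon. The length takes in every annotated exon of a gene, from 2447 bases for Hars to 18102 for Eprs, and not 1 transcript. The order of genes therefore depends in part on how much exon is annotated. On that scale Farsb, Wars and Gars were the highest synthetases in HDT, at 51.3, 41.9 and 34.6 CPM per kilobase, and Gars, Wars and Nars in vehicle, at 37.2, 32.4 and 30.3. Vars was 5th of 20 in HDT and 15th in vehicle, and Cars was last in both.

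**Figure D2:**
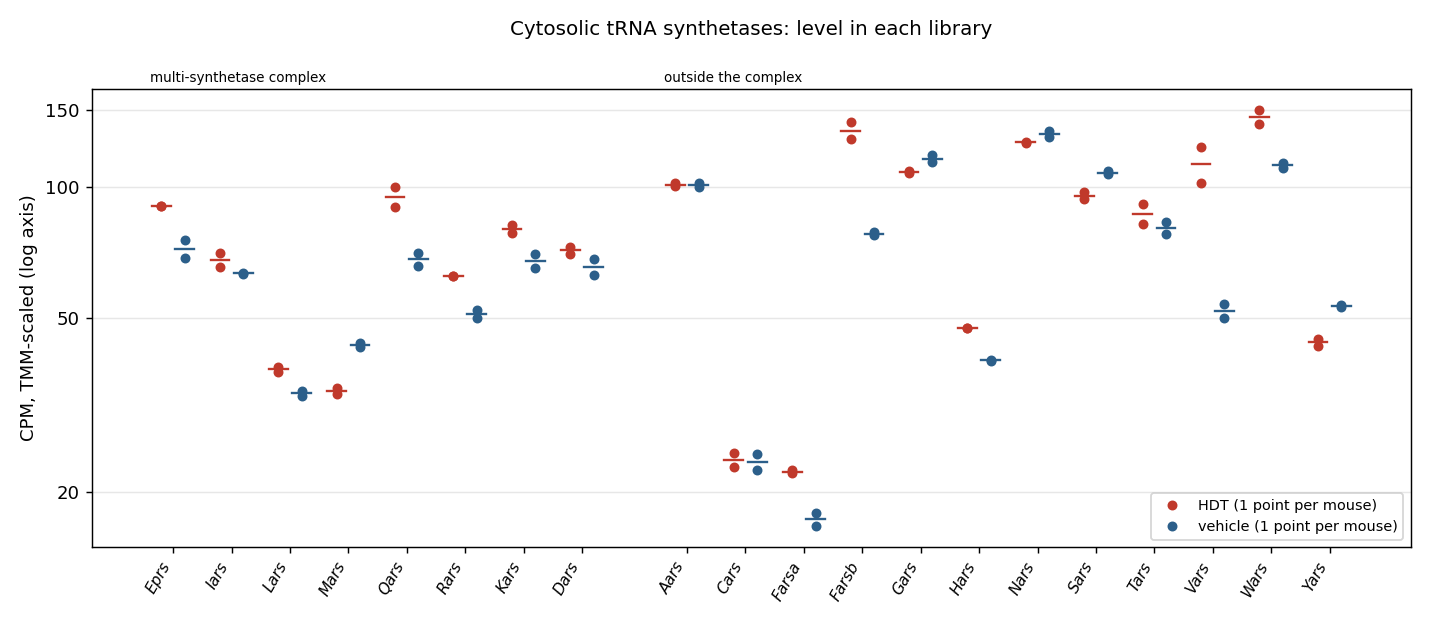
Level of the 20 cytosolic tRNA synthetases in each library, in CPM on a log axis, with HDT (red) left of vehicle (blue) for each gene, 1 point per mouse and a line at the mean. Vars and Farsb show the widest gaps between groups, with Vars at 123 and 102 CPM in HDT and 49.99 and 54.0 CPM in vehicle, while the points of Aars, Cars and Tars overlap.

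Mitochondria use a second set of synthetases. Of 17 mitochondrial synthetase genes, 3 were higher, 4 were lower and 10 had no call, with a median log2 fold change of −0.04. At the deposited scaling 14 were higher and 1 lower, against 62.8% higher and 5.5% lower over all genes. Those TMM counts are near the shares over all genes, 18.4% higher and 19.3% lower, and the difference from the cytosolic set was not tested. After Vars2, the largest change was that of Mars2, at 10.7 and 9.73 CPM in HDT and 6.36 and 6.76 CPM in vehicle (0.64, limma adjusted p = 0.00284). Mars2 was thus higher where its cytosolic counterpart Mars was lower.

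In the ATF4 set, the regulators of the response were lower together. Of 6 such genes, 5 were called lower and Atf4 itself was not, with a median log2 fold change of −0.76. The shares over all genes were 19.3% lower and 18.4% higher. At the deposited scaling 3 of the 6 were lower and none was higher, against 5.5% lower and 62.8% higher over all genes. No setting of the scaling called any of the 6 higher. Atf4 (chromosome 15, 80255184 to 80257541) was at 95.2 and 121 CPM in HDT and at 144 and 110.4 CPM in vehicle, groups that overlap (log2 fold change −0.24, SE 0.18, limma adjusted p = 0.375). ATF4 is known to be set largely by translation, and its protein was not measured here.

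PERK, the kinase of the endoplasmic reticulum that phosphorylates eIF2, fell furthest among them. Eif2ak3 (chromosome 6, 70844515 to 70905245) was at 30.3 and 28.4 CPM in HDT mice, against 55.6 and 65.1 CPM in vehicle mice, a log2 fold change of −1.04 (SE 0.09, limma adjusted p = 8.64e-05). Both HDT mice lay far below both vehicle mice, at 0.49 of the vehicle level in the fit. The subunit that brings a phosphatase back to eIF2, known as GADD34, fell too: Ppp1r15a (chromosome 7, 45522916 to 45526268) was at 8.83 and 8.18 CPM in HDT and at 17.1 and 14.2 CPM in vehicle (−0.87, SE 0.12, limma adjusted p = 0.000754). The kinase and the phosphatase subunit were therefore both lower.

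Atf5, a relative of ATF4 that is likewise controlled through translation (chromosome 7, 44812256 to 44816658), was at 17.9 and 19.8 CPM in HDT and at 33.2 and 32.8 CPM in vehicle, a log2 fold change of −0.81 (SE 0.08, limma adjusted p = 0.000146). Ddit3, which encodes the stress factor CHOP, was at 5.502 and 6.22 CPM in HDT and at 9.998 and 9.06 CPM in vehicle (−0.70, SE 0.12, limma adjusted p = 0.00274). Trib3, a pseudokinase induced by ATF4 and CHOP, was low in all 4 libraries, at 1.23 and 1.49 CPM in HDT and at 2.07 and 2.21 CPM in vehicle, which is 63 to 76 reads each (−0.66, limma adjusted p = 0.0347). Its call was lost without HDT replicate 1 (0.14), vehicle replicate 1 (0.0796) or vehicle replicate 2 (0.123), and with DESeq2 (0.142). At the deposited scaling Ddit3 and Trib3 kept a negative log2 fold change, −0.17 and −0.13, with no call.

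**Figure D3:**
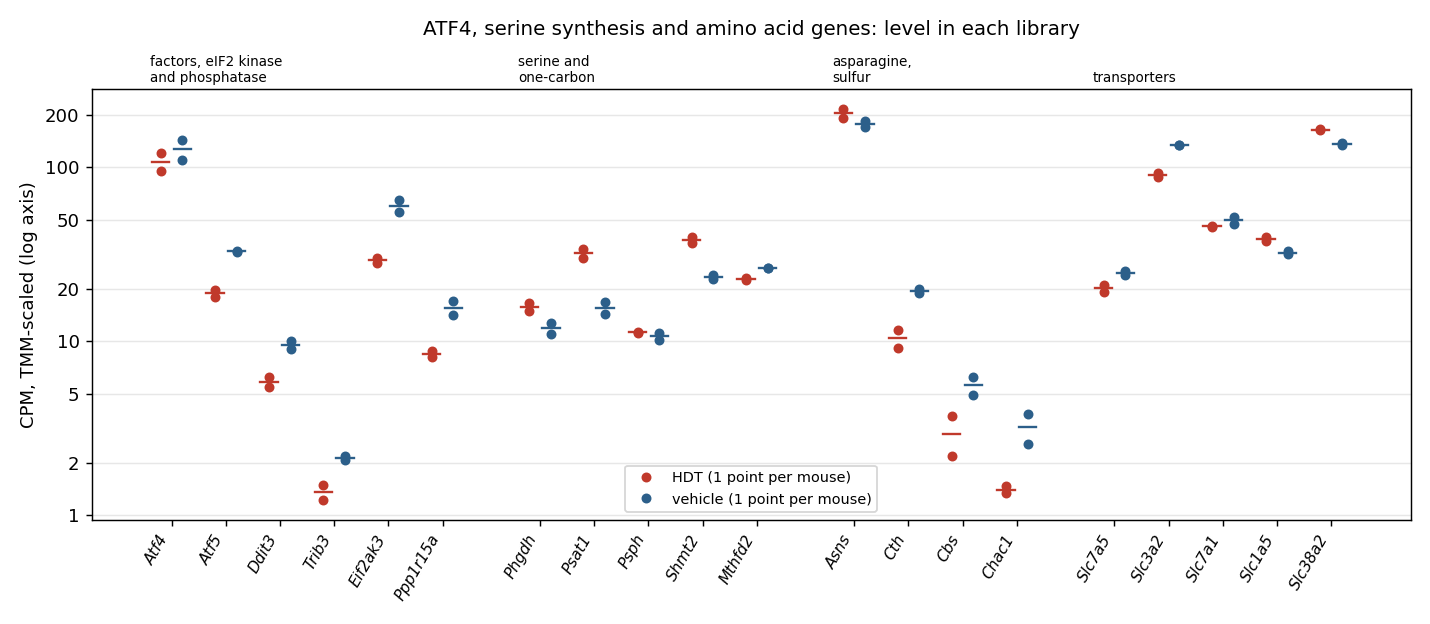
Level of the 20 ATF4, serine synthesis and amino acid genes in each library, in CPM on a log axis, with HDT (red) left of vehicle (blue), 1 point per mouse and a line at the mean. The 5 regulators beside Atf4 lie lower in HDT, Psat1 and Shmt2 lie higher, and the points of Atf4 overlap.

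Genes of serine and one-carbon metabolism went up more often than down, with 3 of 5 higher, 1 lower and 1 without a call. Over all genes 18.4% were higher and 19.3% lower. Serine is made from a glycolytic intermediate in 3 steps, by Phgdh, Psat1 and Psph. The middle enzyme, the transaminase Psat1 (chromosome 19, 15904678 to 15947337), was at 34.0 and 30.4 CPM in HDT and at 14.3 and 16.8 CPM in vehicle, a log2 fold change of 1.05 (SE 0.10, limma adjusted p = 0.000145). The first enzyme, Phgdh, was at 16.7 and 14.9 CPM in HDT and at 11.1 and 12.8 CPM in vehicle (0.40, SE 0.11, limma adjusted p = 0.0197), a call lost without HDT replicate 1 (0.0909) and without vehicle replicate 1 (0.101). Its level is uncertain, because 7 processed pseudogenes match more than 80% of its transcript at up to 98.7% identity; the 9 pseudogene rows together held 0.27 and 0.18 CPM in HDT and 0.23 and 0.15 CPM in vehicle. The last enzyme, the phosphatase Psph, was at 11.2 and 11.4 CPM in HDT and at 10.3 and 11.1 CPM in vehicle, with no call (0.08, limma adjusted p = 0.557). Psph is uncertain, since 10.4% of its exon bases overlap Cct6a on the opposite strand, a gene at 138 and 141.5 CPM in HDT and 123 and 119 CPM in vehicle. With that limit, Psat1 had 3.04 and 2.66 reads per Psph read in HDT mice, against 1.399 and 1.51 in vehicle mice.

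Shmt2, which splits serine to glycine in the mitochondrion and loads a folate with one carbon (chromosome 10, 127517123 to 127522444), was at 39.8 and 37.0 CPM in HDT and at 22.7 and 24.2 CPM in vehicle. Its log2 fold change was 0.71 (SE 0.07, limma adjusted p = 0.000229). Mthfd2, the next enzyme along that folate path, was slightly lower, at 22.6 and 23.0 CPM in HDT and 26.3 and 26.5 CPM in vehicle (−0.21, limma adjusted p = 0.0431). That call did not survive the loss of any one library, with adjusted p between 0.0988 and 0.163, nor DESeq2 (0.155), upper-quartile scaling (0.0734) or the absence of a filter (0.092), and the change was 0.32 and called higher at the deposited scaling. Of 13 other one-carbon and glycine genes, 5 were higher, 3 lower and 5 without a call, against 18.4% higher and 19.3% lower over all genes. At the deposited scaling 10 were higher and none lower, against 62.8% and 5.5% over all genes. The mitochondrial formate enzyme Mthfd1l was at 6.30 and 6.56 CPM in HDT and 2.36 and 2.90 CPM in vehicle (1.29, limma adjusted p = 0.000459), and Ahcy, which clears S-adenosylhomocysteine, at 44.1 and 38.7 CPM in HDT and 22.8 and 26.2 CPM in vehicle (0.76, limma adjusted p = 0.000576). Dld, a subunit shared by the glycine cleavage system and the pyruvate dehydrogenase complex, was at 96.2 and 96.9 CPM in HDT and 156 and 151 CPM in vehicle (−0.67, limma adjusted p = 0.000102).

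The path from homocysteine to cysteine and the glutathione enzyme Chac1 were lower. Cth, cystathionine gamma-lyase (chromosome 3, 157894248 to 157925077), was at 11.7 and 9.15 CPM in HDT and at 19.9 and 19.1 CPM in vehicle, a log2 fold change of −0.91 (SE 0.12, limma adjusted p = 0.000818). Cbs, the enzyme before it, was at 3.71 and 2.18 CPM in HDT and 4.94 and 6.27 CPM in vehicle (−0.96, SE 0.27, limma adjusted p = 0.0308). Its call was lost without HDT replicate 2, where the change was −0.56 (0.0584), without vehicle replicate 1 (−1.14, 0.0504) and without vehicle replicate 2 (−0.79, 0.134). Chac1 (chromosome 2, 119351229 to 119354381) was at 1.34 and 1.47 CPM in HDT and at 3.83 and 2.58 CPM in vehicle, or 69 and 74 reads against 135 and 89 reads. Its log2 fold change of −1.16 (SE 0.23, limma adjusted p = 0.00516) was the lowest of the 40 genes.

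Asns, a textbook target of ATF4 and the most abundant of the 20 per kilobase of exon in both groups, did not follow these genes. It was at 217 and 193 CPM in HDT and at 169.9 and 184 CPM in vehicle, with both HDT values above both vehicle values and no call (log2 fold change 0.21, SE 0.08, limma adjusted p = 0.0647). Without HDT replicate 2 it was called higher (0.31, 0.0101), as it was at the deposited scaling (0.74), with upper-quartile scaling (0.25, 0.0351) and with no filter on low counts (0.23, 0.0376). Per kilobase of exon its level was 75.1 CPM in HDT and 64.8 CPM in vehicle, followed by Atf4 at 45.8 CPM in HDT and 54.0 CPM in vehicle and Slc3a2 at 25.7 CPM in HDT and 38.3 CPM in vehicle, while Cbs was the lowest at 0.394 CPM in HDT and 0.749 CPM in vehicle.

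Amino acid transporters were split, with 2 of 5 higher, 2 lower and 1 without a call. The shares over all genes were 18.4% higher and 19.3% lower. Slc3a2, the heavy chain that carries several light chains to the cell surface, was at 87.8 and 93.2 CPM in HDT and at 135 and 135 CPM in vehicle, a log2 fold change of −0.58 (SE 0.06, limma adjusted p = 0.000254). At the deposited scaling the value was −0.05 with no call. Its partner Slc7a5, the light chain for large neutral amino acids, was at 21.1 and 19.3 CPM in HDT and 24.2 and 25.6 CPM in vehicle (−0.30, limma adjusted p = 0.0201). That call was lost without HDT replicate 2 (0.102) or vehicle replicate 2 (0.0984) and with DESeq2 (0.0509), and at the deposited scaling Slc7a5 was called higher, by 0.23. Slc7a1, which imports arginine and lysine, was at 46.1 and 45.5 CPM in HDT and 47.6 and 51.6 CPM in vehicle, with no call (−0.11, limma adjusted p = 0.221).

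Slc38a2 and Slc1a5, both carriers of glutamine and other neutral amino acids, were called higher. Slc38a2 was at 165 and 166 CPM in HDT and at 139 and 135 CPM in vehicle (0.27, SE 0.06, limma adjusted p = 0.00808), a call lost without vehicle replicate 1 (0.0588) and without vehicle replicate 2 (0.0914). Slc1a5 was at 39.7 and 37.7 CPM in HDT and 31.9 and 32.9 CPM in vehicle (0.26, limma adjusted p = 0.0187), a call lost without HDT replicate 1 (0.0674), vehicle replicate 1 (0.101) or vehicle replicate 2 (0.0536) and with DESeq2 (0.052). Of 13 other amino acid transporters, 3 were higher, 4 lower and 6 without a call, against 18.4% higher and 19.3% lower over all genes. At the deposited scaling 7 were higher and 2 lower, against 62.8% and 5.5% over all genes. The 3 largest changes were falls. Slc7a8, a second partner of Slc3a2, was at 46.0 and 32.3 CPM in HDT and 87.1 and 93.6 CPM in vehicle (−1.23, limma adjusted p = 0.00743) and was called in 2 of the 4 fits with 1 library left out. Slc38a4 and Slc38a3, of which Slc38a3 also carries glutamine, had log2 fold changes of −1.61 and −1.01 (limma adjusted p = 0.00124 and 0.00148).

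**Figure D4:**
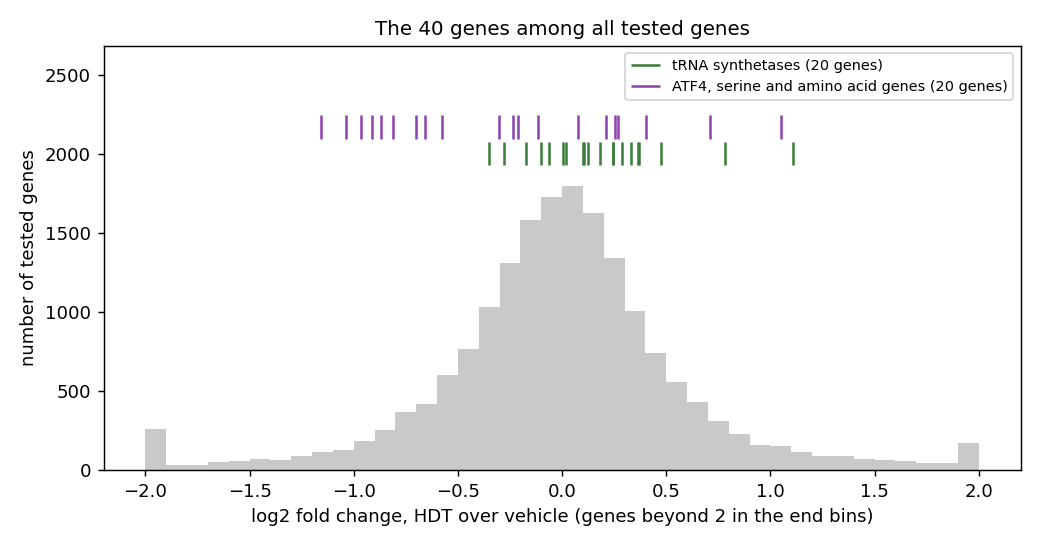
Histogram of the log2 fold change of all 18285 tested genes (grey, with genes beyond 2 in the end bins), with a tick for each of the 20 synthetases (green) and of the 20 ATF4 and amino acid genes (purple). The synthetases span −0.35 to 1.11 with a median of 0.16, and the other set spans −1.16 to 1.05 with a median of −0.27.

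Further genes of the ATF4 pathway moved both ways, more often down with TMM. Of 18 other genes of the ATF4 pathway 17 were tested, with a median of −0.31. Of these, 8 were lower, 2 higher and 7 without a call, against 19.3% lower and 18.4% higher over all genes. At the deposited scaling 6 were lower and 6 higher, against 5.5% lower and 62.8% higher over all genes. Nupr1, a small stress-induced nuclear protein, was at 25.5 and 33.1 CPM in HDT and at 278 and 319 CPM in vehicle, a log2 fold change of −3.36 (SE 0.14, limma adjusted p = 3.46e-05). Aldh1l2, a mitochondrial folate enzyme, was at 2.41 and 2.48 CPM in HDT and 16.4 and 23.1 CPM in vehicle (−2.98, limma adjusted p = 1.34e-05). Pycr1, which completes proline synthesis in the mitochondrion, was at 4.41 and 3.88 CPM in HDT and 21.5 and 25.8 CPM in vehicle (−2.50, limma adjusted p = 7.26e-06). These 3 falls exceed those of any of the 40 members, and all 3 were called lower at the deposited scaling as well. The 2 higher genes, named after their values were seen, were Slc7a11, the cystine importer, and Sesn2, a stress-induced regulator of mTORC1. Slc7a11 was at 14.1 and 13.5 CPM in HDT and 6.05 and 4.24 CPM in vehicle (1.44, limma adjusted p = 0.000518), a larger rise than that of any member, and Sesn2 at 13.5 and 10.8 CPM in HDT and 8.21 and 7.81 CPM in vehicle (0.59, limma adjusted p = 0.00763). The hormone gene Fgf21 had no read in any library.

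The other branches of the unfolded protein response, run by IRE1 and ATF6, were lower in 9 of 12 genes, with none higher and a median of −0.54. The shares over all genes were 19.3% lower and 18.4% higher. At the deposited scaling 5 of these 12 genes were higher and 3 lower, against 62.8% higher and 5.5% lower over all genes. The factor Xbp1 was at 256 and 246 CPM in HDT and at 455 and 483 CPM in vehicle (−0.90, limma adjusted p = 3.99e-05), the chaperone Hspa5 at 351 and 424 CPM in HDT and 695 and 624 CPM in vehicle (−0.77, limma adjusted p = 0.000944), and Sdf2l1 at 21.9 and 20.6 CPM in HDT and 41.1 and 44.1 CPM in vehicle (−1.002, limma adjusted p = 4.41e-05). Chief cell markers, summed above, were lower in the same libraries, and their part in these falls and in that of Eif2ak3 was not tested. Of 12 further genes for eIF2 kinases and eIF2 factors, 2 were higher and none lower, against 18.4% and 19.3% over all genes. All 12 were called higher at the deposited scaling, where 62.8% of all genes were. The interferon-induced kinase PKR, Eif2ak2, was at 52.8 and 63.1 CPM in HDT and 38.3 and 30.8 CPM in vehicle (0.75, limma adjusted p = 0.00584), and Eif2b2 had a log2 fold change of 0.29 (limma adjusted p = 0.0178), called in 1 of the 4 fits with 1 library left out.

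**Figure D5:**
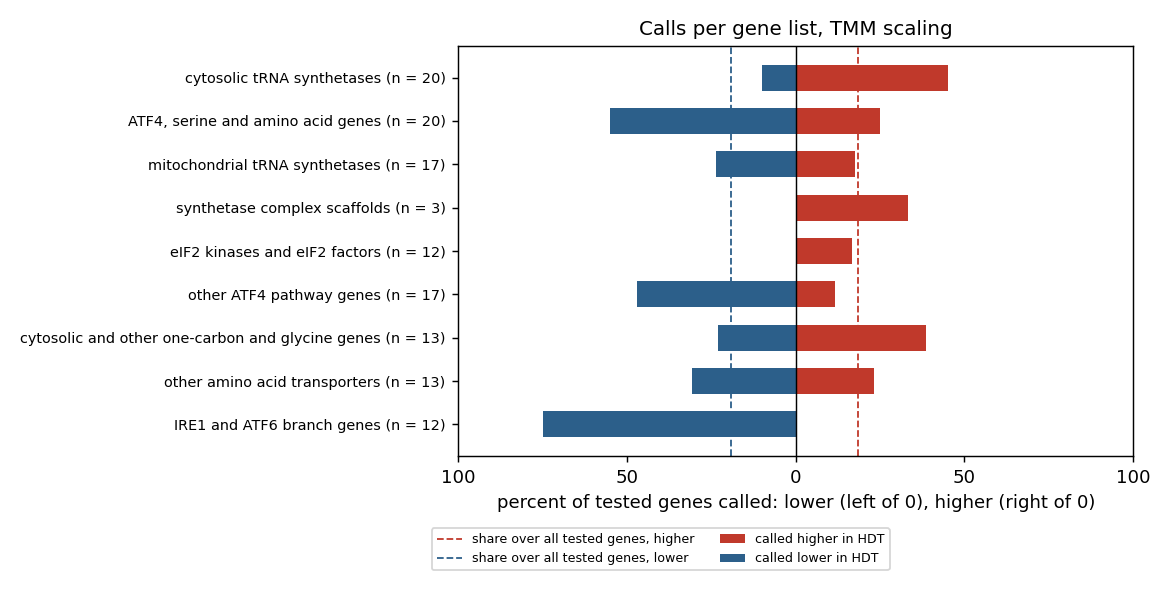
Percent of the tested genes of each list that were called lower (blue, left of 0) or higher (red, right of 0) in HDT with TMM scaling; dashed lines mark the shares over all tested genes, 19.3% lower and 18.4% higher. The bars of the cytosolic synthetases reach further to the higher side (9 of 20) and those of the ATF4 set and of the IRE1 and ATF6 branches further to the lower side (11 of 20 and 9 of 12).

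Overlapping genes limit a few of these values. The strand setting of the counting is not given in the sources used here, and 12 of the 40 members share annotated exon bases with another gene, 7 of them over at least 5% of their exon length. They are Aars, Atf5, Ddit3, Eif2ak3, Farsb, Hars and Psph. The largest overlap was that of Aars, 15.1%, with Exosc6 on the same strand and Gm24103 on the opposite one, and Ddit3 shares 10.9%, in part with Mars on the opposite strand. For Farsb 9.5% of the exon bases overlap Sgpp2, and for Eif2ak3 8.0% overlap Gm43292, both on the opposite strand. Sgpp2 itself was at 78.7 and 81.1 CPM in HDT and 79.4 and 86.1 CPM in vehicle. For Iars the pseudogene Gm4849 matches 49.9% of the transcript at 96.8% identity, and it held at most 8 reads in a library. Among the pathway genes named above, Aimp2 shares 29.4% of its exon bases with Eif2ak1, Aldh1l2 14.1% with D10Wsu102e and Vars2 8.5% with Gm20483, each on the opposite strand.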

How the data were processed

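The authors deposited 1 table of normalized gene counts (a signal per gene), with 52125 rows by symbol and 1 column per mouse. The tools named per the submitters' processing notes are edgeR, featureCounts, the aligner STAR (2.7.1a) and Subread (2.0.0), with the build GRCm38 or mm10; their order, the annotation, strand setting and normalization were not given in the sources used here. Each deposited value was a whole number of reads times a constant per library (1.1128 to 1.1381), and 100% of values above 0 came out whole within 0.01, so reads were recovered.

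Genes were kept by filterByExpr (18285 left). The deposited values were divided by column totals times TMM factors (1.219 and 1.183 in HDT, 0.848 and 0.818 in vehicle) and taken as log2(value + 1), a pseudocount of 0.89 reads, which understates changes of low genes. HDT was compared with vehicle in limma 3.58.1 with trend and robust moderation, two-sided, with Benjamini-Hochberg adjustment over all genes. The same function was tested on simulated reads with known changes, equally up and down, in far fewer genes than were called here. That simulation cannot test the choice of scaling, and its outcome is not given here. The count test, edgeR 4.0.16, on recovered reads was an alternative and called 6869 genes against 6889. DESeq2 1.42.0, other scalings, filters, pseudocounts, a replicate block and the loss of each library were the others. Chi-square over degrees of freedom was 20.6 between the HDT libraries and 11.3 between the vehicle libraries, where sampling of reads alone gives about 1.

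Positions and exon lengths are from GENCODE M21, promoters from RefSeq on GRCm38.p6, and near-identical copies were sought with BLAST 2.17.0 at 95% identity over at least 200 bases. Members and lists were chosen with earlier results of these data known, so no test over a list is given. All members are named, and of each pathway list the 3 called genes with the largest change, plus all scaffold genes; 1 gene that this rule names is not reported here.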

Additional observations from a re-analysis of the deposited data

How the results depend on the processing

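With edgeR on the recovered reads, other pseudocounts and TMM without the 20 most abundant genes, every one of the 40 genes kept its direction and its side of the threshold. The deposited scaling moved the counts most: 12481 genes were called (92.0% of them higher, against 48.9% of 6889 with TMM), 20 synthetases were higher and 0 lower, and 10 of the ATF4 and amino acid genes were higher and 5 lower. It turned the sign of Mars (0.18), Gars (0.43), Nars (0.47), Sars (0.36), Yars (0.25), Atf4 (0.30), Mthfd2 (0.32), Slc7a5 (0.23) and Slc7a1 (0.42). Leaving out 1 library at a time gave 5152 to 6040 calls in all, 5 to 9 synthetases higher and 1 to 2 lower, and 2 to 6 ATF4 and amino acid genes higher and 7 to 9 lower. Uncalled genes near 0 changed sign there: Cars ranged over −0.044 to 0.078 (negative without HDT replicate 2, −0.015, or vehicle replicate 2) and Aars over −0.014 to 0.024 (negative without vehicle replicate 2). With the replicate number as a block 4982 genes were called, 3 ATF4 and amino acid genes were higher and 7 lower, and synthetases had 7 higher and 2 lower; Kars, Hars, Trib3, Phgdh, Mthfd2, Cbs, Slc7a5 and Slc1a5 lost their calls. The labels do not say that equal numbers pair mice, and the deviations of same-numbered libraries correlated at −0.278 across genes. A crossed pairing, added after seeing the data, gave 8525 calls, with 10 synthetases higher and 3 lower and 6 and 12 of the other set. DESeq2's own test called 5491 genes and did not call Trib3, Mthfd2, Slc7a5 and Slc1a5. Sars, Lars and Asns, uncalled with TMM, each gained a call under 2 other scalings or filters besides the deposited scaling. The largest standard errors of the 40 were those of Cbs (0.27), Chac1 (0.23), Trib3 (0.20) and Atf4 (0.18). Atf4 had 3803 to 6086 reads per library, and Trib3 63 to 76.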
